A study of Mus musculus with 22 samples.

Results

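Prom1 and Prom2 encode the prominins of the mouse, 2 of the 27670 gene names on the array. They were found by gene name, and each is carried by 2 probes, so 4 of 41174 probes are described, each apart from the others. The genes were taken up because earlier values of the same arrays showed Prom2 far higher in SIRT1 mutants than in controls. Differences between the genotypes are therefore given for these probes as a description, without a test. Tests are given for age and for tissue, contrasts that the choice did not use. For Prom2 they draw on the same iKO values, so their p-values may not be independent of the choice.

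Gene expression was measured in total RNA on 22 one-colour arrays, 15 of ileum and 7 of colon, from male C57BL/6 mice fed chow without further treatment. Young mice were 6 to 8 weeks old and aged mice 24 months old. Controls are labelled Flox and mutants SIRT1 iKO. The labels do not spell out iKO, name the promoter that drives the deletion, or say which part of Sirt1 is lost. Young ileum was measured on 4 flox and 4 iKO arrays. From aged mice there were 3 flox and 4 iKO arrays for the ileum, and again 3 flox and 4 iKO arrays for the colon. The series text speaks of 3 to 4 mice for each group, but no label ties an array to a mouse. The p-values measure the spread between these arrays.

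Prominins are membrane proteins that pass the membrane several times, bind cholesterol and gather in microvilli and other protrusions. Prominin 1, also called CD133, marks stem and progenitor cells of intestinal crypts and is needed for the discs of photoreceptors. Prominin 2 is its close relative in epithelia, has been placed in protrusions and near caveolae, and is known for protecting cells from ferroptosis, a death driven by iron and lipid peroxidation, by helping to export ferritin.

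The probes are shown because the Prom2 probes, which share a name, gave different values. Each is a 60-base oligonucleotide, and the array file places it on build mm7. The letters below are the array's own, 5′ to 3′, with all 60 bases only for the probe that the file lays across more genomic sequence than its own length. Nothing is capitalised, since no base is set apart. No other probe of the array shared a run of 20 bases with any of the 4 on either strand.
Prom2 A_52_P452667, transcript NM_178047, mm7 chr2:127268013-127268072, first 30 bases: ttatgaatgtacaagcaagttttgctgcta
Prom2 A_51_P385928, transcript NM_138750, mm7 chr2:127273709-127275709, all 60 bases: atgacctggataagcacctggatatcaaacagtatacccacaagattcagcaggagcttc
Prom1 A_51_P414072, transcript NM_008935, mm7 chr5:43314657-43314716, first 30 bases: ccatatgtgaagtgtgctaaacacaaacca
Prom1 A_52_P402786, transcript NM_008935, mm7 chr5:43326736-43326795, first 30 bases: acgaagaagtttgggaaaacaatactaggc
The genes lie on the minus strand, so the Prom2 probe of NM_178047 sits closer to the 3′ end than the Prom2 probe of NM_138750, and Prom1 A_51_P414072 closer than A_52_P402786. The second Prom2 probe is laid across 2001 genomic bases, more than its own 60. Whether the other probes lie in coding exons or untranslated ends was not looked up here. RefSeq lists both Prom2 transcripts under the same gene in GRCm38.p6.

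On the ileum arrays 49.8% to 61.5% of spots were well above background, and on the colon arrays 70.4% to 79.7%. On ileum arrays the 75th percentile of the signal was 917.6 to 1231, and on colon arrays 1425 to 1751. A pair of ileum arrays stood apart by the markers of the colon. The summed signal of 8 colon genes, relative to the 75th percentile, was 423 on aged ileum flox 1 and 303 on aged ileum iKO 2, against 7.68 to 21.6 on the other 13 ileum arrays and 467 to 786 on the colon arrays. Of these genes 6 were higher on both arrays than on any other ileum array, among them Car1 and Aqp8, which serve ion and water transport in the colon. Car1 reached a log2 level of 8.26 and 7.86 there, against 2.70 at most on the other ileum arrays. Of 7 ileum markers 4 were lower on both than on any other ileum array, with summed signals of 285 and 347 against 408 to 651. By the mean log2 level of these 7 genes the pair did not stand apart. It read 3.14 and 3.18, and aged ileum iKO 3, with a colon marker sum of 20.4, read 3.20. Prominin differences by age and tissue, the region correlations, and the tissue values of genes named beside them are given with and without the pair; rankings of likeness over all 22 arrays include it.

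The design ties several technical features to the groups. Ileum and colon lay on different slides, so tissue and slide cannot be told apart. Young ileum arrays sat at positions 1 and 2 of a slide and aged ones at 3 and 4, so age and position cannot be told apart either. In the young ileum and in the colon, flox and iKO arrays also took different positions. Sirt1 itself was measured on every array by 2 probes. Probe A_52_P358612 was lower in iKO mice by 0.21 to 0.50 (log2) over the 3 settings and A_51_P141152 differed by -0.13 to 0.01, and neither passed limma's test in any of them (smallest adjusted p = 0.185). Since the deleted part is not stated, these probes may lie outside it and then check nothing.

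Prom2 probe A_52_P452667 was well above background on all 12 iKO arrays and on 0 of 10 flox arrays. Levels are given on a log2 scale on which 0 is the 75th percentile of that array's signals. In young iKO ileum the 4 arrays read -2.23, -2.38, -2.64 and -2.46, with a mean of -2.43 ± 0.17 (SD). In young flox ileum they read -5.83, -6.28, -6.28 and -5.80, none of them well above background. All 4 iKO arrays lay above all 4 flox arrays.

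In the aged ileum the same probe read -0.15, 0.14, -0.20 and -0.32 in iKO mice, with a mean of -0.14 ± 0.19 (SD, n = 4). The aged flox arrays 1, 3 and 4 read -4.52, -5.58 and -4.13, again not well above background. The 4 iKO arrays lay close together and above every flox array. Array iKO 2, which carried colon markers, was the highest by a small margin, and the flox arrays with and without colon markers were all at background.

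In the aged colon the iKO arrays read 1.94, 2.41, 2.05 and 2.08, with a mean of 2.12 ± 0.20 (SD, n = 4). The flox arrays read -7.26, -6.86 and -6.77, none well above background. These are the widest separations of the probe, and the ranges did not overlap. In scanner units the mean signal of the iKO groups was 171 (young ileum), 1020 (aged ileum) and 6310 (colon).

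Because the flox levels were at background, the genotype difference has only a lower bound. Here and below "at least" sets the mean of the brighter group against the dimmest signal that was still well above background on each array of the dimmer group. That dimmest level was -5.03 to -3.27 on ileum arrays and -6.63 to -5.81 on colon arrays. Prom2 in iKO mice was at least 3.75-fold higher in the young ileum, at least 17.6-fold in the aged ileum and at least 345-fold in the colon. The fitted differences were 3.62 ± 0.25, 4.60 ± 0.27 and 9.08 ± 0.17 (log2 ± SE), values that rest on flox signals with no measured level. Within slides that held both genotypes they were 3.16 to 4.04 for young ileum, 5.71 on the only such slide for aged ileum, and 8.82 to 9.34 for colon. Without the pair of arrays with colon markers the aged ileum difference was 4.62 ± 0.33 (SE). With normexp background correction the differences shrank to 1.56, 3.17 and 6.32. Over all probes, limma called 0.0359% between genotypes in the young ileum (0.0314% higher and 0.00449% lower in iKO), 0.153% in the aged ileum (0.0987% and 0.0539%) and 0.103% in the colon (0.0857% and 0.0171%). The probe was chosen on this contrast, so nothing is read from these shares.

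Among iKO mice, probe A_52_P452667 was well above background on every array, so its level could be tested by age and tissue. In iKO ileum it rose with age by 2.29 ± 0.25 (log2 ± SE), or 4.9-fold, with all 4 aged arrays above all 4 young ones (limma, adjusted p = 0.000104). Within the 3 slides that held both ages the rise was 2.18 to 2.40. In the aged iKO mice the colon exceeded the ileum by 2.25 ± 0.26, or 4.77-fold, with all 4 colon arrays above all 4 ileum arrays (limma, adjusted p = 3.66e-05). Without the pair of arrays with colon markers the rise with age was 2.20 ± 0.27 (adjusted p = 0.0012) and the colon excess 2.34 ± 0.29 (adjusted p = 0.000165). In these bulk tissues, more cells of a type and more RNA per cell cannot be told apart.

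By probe A_52_P452667, levels therefore ran from aged colon iKO through aged ileum iKO to young ileum iKO, and each of these groups lay clear of its neighbours. The 3 flox groups followed, with no order among them because none of their arrays was well above background. The second Prom2 probe, described next, did not give this order in the ileum. For the same reason no fold by age or tissue is given for flox mice, and a difference in how age or tissue acted in the genotypes was not tested.

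**Figure D1:**
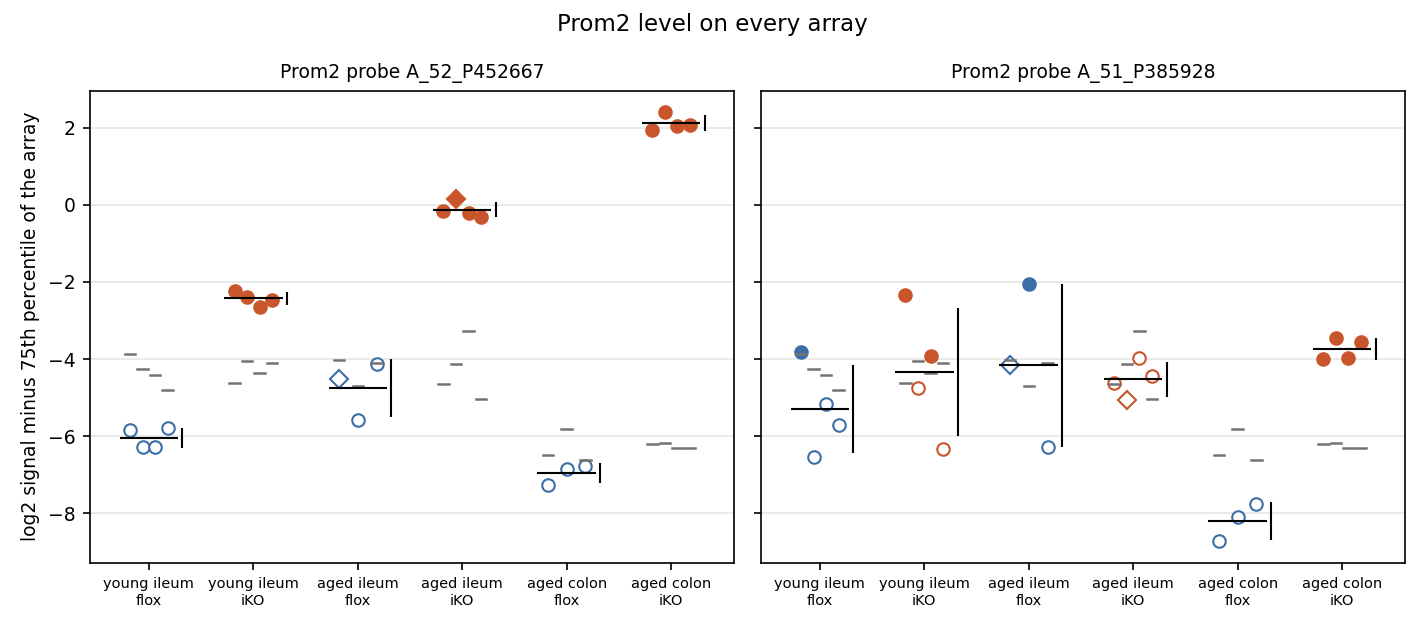
Level of each Prom2 probe on all 22 arrays (log2, with 0 at the array's 75th percentile) by group; filled points are well above background, open points are not, and diamonds are the 2 ileum arrays with colon markers. Horizontal bars are group means, vertical bars 1 SD to each side, and grey ticks the dimmest level well above background on that array; probe A_52_P452667 is filled on all 12 iKO arrays and open on all 10 flox arrays.

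The second Prom2 probe, A_51_P385928, was near background in the ileum, where 4 of 15 arrays were well above it. Young flox arrays read -3.82, -6.54, -5.17 and -5.70, with array 1 well above background. Young iKO arrays read -2.35, -4.75, -3.92 and -6.34, with arrays 1 and 3 well above background. The groups overlapped, and the probe did not pass the filter for the ileum fit.

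The aged ileum flox arrays read -4.16, -2.06 and -6.28, with only array 3 well above background. The aged ileum iKO arrays read -4.63, -5.07, -3.98 and -4.43, none well above background. Here the flox and iKO ranges overlapped too, and no genotype difference can be read for this probe in the ileum.

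In the colon the probe went with the genotype. The iKO arrays read -3.99, -3.46, -3.97 and -3.55, all well above background, and the flox arrays -8.73, -8.09 and -7.76, none of them. Prom2 by this probe was at least 5.93-fold higher in colon iKO mice, with a fitted difference of 4.45 ± 0.25 (SE) and 3.79 to 5.18 within slides. Quantile normalization gave 3.18 and normexp 1.56. In aged iKO mice the colon was at least 1.29-fold above the ileum by this probe, given without a test, since the probe entered that fit only through the colon iKO arrays and no aged ileum iKO array was well above background. Over the 15 ileum arrays the Prom2 probes correlated at r = 0.118, over the 13 without the pair with colon markers at 0.183, and over all 22 at 0.553, with arrays of several groups pooled. The probes therefore did not give the same account of Prom2 in the ileum. On colon iKO arrays the mean signal was 108 for this probe and 6310 for A_52_P452667. Since this probe was near background in the ileum, little can be read from it there.

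Prom1 was well above background on all 22 arrays by both of its probes. By probe A_51_P414072, young flox ileum read 0.99, 1.32, 0.31 and 0.79. Young iKO ileum read 0.99, 1.33, 0.96 and 0.47. The young groups overlapped almost fully, with means of 0.85 ± 0.42 and 0.93 ± 0.35 (SD, n = 4 each).

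Aged flox ileum arrays 1, 3 and 4 read 2.23, 0.86 and 1.03, and aged iKO arrays 0.79, 2.09, 1.73 and 1.48. The highest array of each group, flox 1 and iKO 2, was the one with colon markers. Colon flox arrays read 2.70, 3.04 and 2.93, and colon iKO arrays 2.70, 2.86, 2.87 and 3.02. Every colon array was above every ileum array, and within the colon the genotypes overlapped.

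The second Prom1 probe, A_52_P402786, followed the first. Its group means were -0.14 ± 0.41 in young flox, -0.09 ± 0.39 in young iKO, 0.40 ± 0.79 in aged ileum flox and 0.53 ± 0.44 in aged ileum iKO (SD). In the colon they were 2.14 ± 0.27 in flox and 1.98 ± 0.15 in iKO mice. The Prom1 probes correlated at r = 0.994 over the 22 arrays and at 0.97 after group means were taken out, as a description across arrays that share both RNA and hybridization.

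Between genotypes Prom1 differed little by either probe. The fitted iKO minus flox differences were 0.08 and 0.04 in the young ileum (SE 0.33 for both), 0.15 and 0.13 in the aged ileum (SE 0.36 and 0.35), and -0.03 and -0.15 in the colon (SE 0.13 and 0.16). Without the pair of arrays with colon markers the aged ileum differences were 0.39 ± 0.33 and 0.41 ± 0.31 (SE). On the only aged ileum slide with both genotypes they were 1.23 and 1.15, and there the iKO array is iKO 2, which carried colon markers, set against flox 3, which did not.

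With age, Prom1 did not pass the test in either genotype. In flox ileum the differences were 0.52 ± 0.36 (limma, adjusted p = 0.386) and 0.54 ± 0.35 (adjusted p = 0.359), and without the pair of arrays 0.09 and 0.08 (adjusted p = 0.901 and 0.904). In iKO ileum they were 0.59 ± 0.33 (adjusted p = 0.271) and 0.63 ± 0.33 (adjusted p = 0.23), and without the pair 0.40 and 0.46 (adjusted p = 0.389 and 0.289). Of the 4 prominin probes 3 entered the ileum fit, and 1 of them, Prom2 A_52_P452667 in iKO mice, was called with age. Over all probes 8.18% were called with age in flox mice (3.11% higher and 5.07% lower in aged mice) and 11.1% in iKO mice (5.01% and 6.13%).

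Between tissues Prom1 differed in both genotypes. In aged flox mice the colon exceeded the ileum by 1.52 ± 0.35 (2.86-fold; limma, adjusted p = 0.00659) and 1.74 ± 0.34 (3.33-fold; adjusted p = 0.00275). In aged iKO mice the excess was 1.34 ± 0.30 (2.53-fold; limma, adjusted p = 0.00389) and 1.45 ± 0.30 (2.73-fold; adjusted p = 0.00218). Without the pair of arrays the values rose to 1.94 and 2.19 in flox and 1.53 and 1.62 in iKO mice, and all 4 still passed. Of the 4 prominin probes, which all entered this fit, both Prom1 probes were called in each genotype and Prom2 A_52_P452667 in iKO mice; the other Prom2 probe is left out of this tally for the reason given above. Between tissues 31.8% of all probes were called in flox mice (19.6% higher and 12.3% lower in the colon) and 42.7% in iKO mice (24.9% and 17.8%), so a call here is common.

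**Figure D2:**
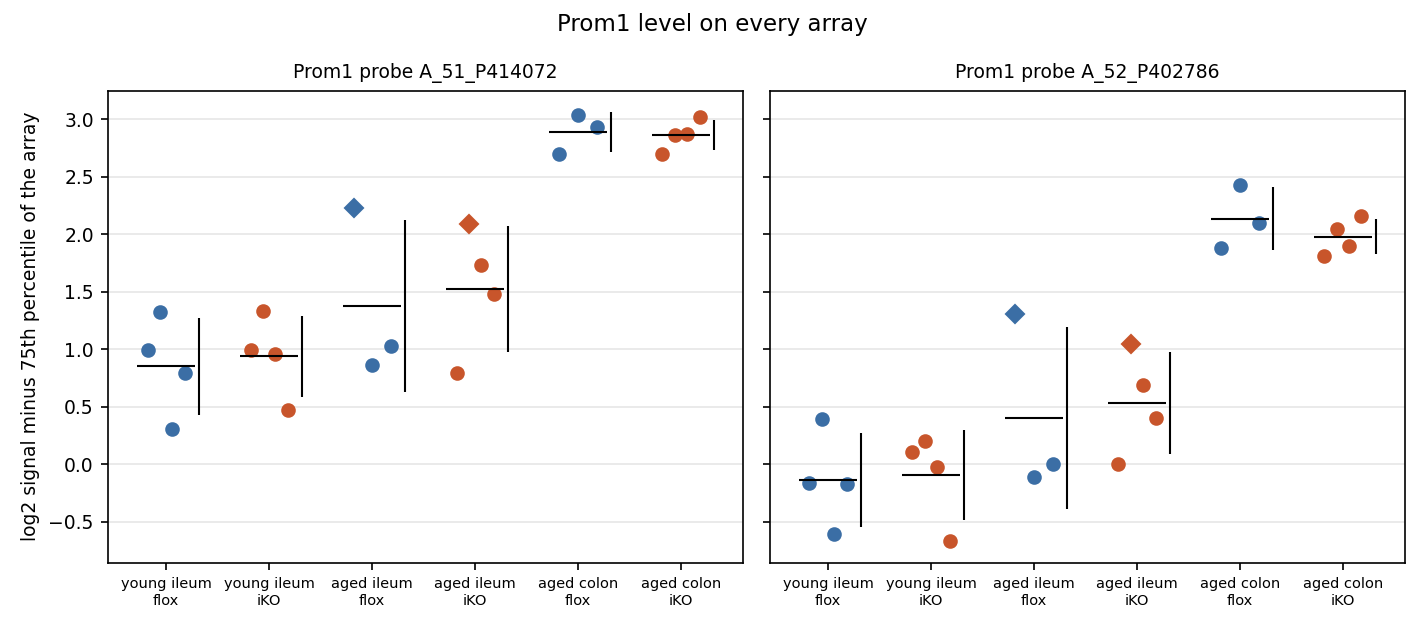
Level of each Prom1 probe on all 22 arrays (log2, with 0 at the array's 75th percentile) by group, drawn as for Prom2 without the background ticks. Every point is well above background, all 7 colon arrays lie above all 15 ileum arrays for both probes, and the diamonds of the arrays with colon markers are the highest of their groups.

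In the ileum, Prom1 moved with the regional markers. Over the 13 ileum arrays without the pair, probe A_51_P414072 correlated with the mean level of the 8 colon markers at r = 0.699 (permutation p = 0.00788, adjusted 0.0105) and rho = 0.734 (permutation p = 0.00575, adjusted 0.0105), two-sided. With the mean of the 7 ileum markers it gave r = -0.749 (permutation p = 0.00313, adjusted 0.0105) and rho = -0.669 (permutation p = 0.0139, adjusted 0.0139). These are 4 relations, adjusted together, with 100000 resamples. Without the 2 arrays farthest from the median marker level, r was 0.668 for the colon and -0.504 for the ileum markers. Of the 8 colon markers, 4 to 6 were well above background on every array of an ileum group, and 2 on no array of it. Of the 7 ileum markers, 5 to 7 were well above background on every array of an ileum group. Background signals therefore enter these means, most of all that of the colon markers. The arrays come from 4 groups, so age enters both sides. The part of tissue position in the Prom1 values was not tested.

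**Figure D3:**
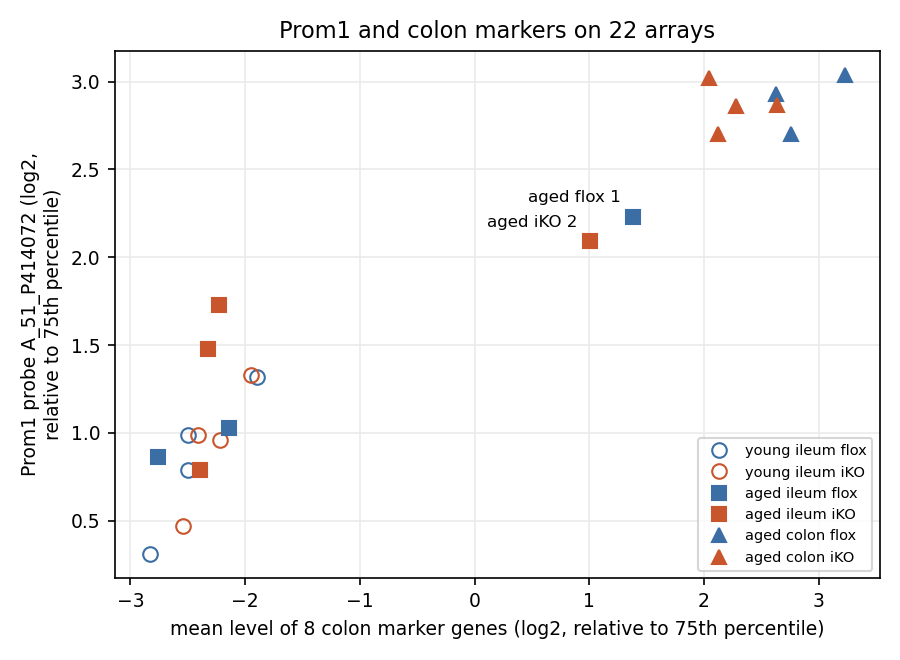
Prom1 probe A_51_P414072 against the mean of 8 colon marker genes on all 22 arrays (both axes log2, with 0 at the array's 75th percentile); each point is 1 array, shaped by tissue and age and coloured by genotype. The colon arrays lie at the upper right, aged ileum flox 1 and iKO 2 lie between them and the rest, and the other 13 ileum arrays lie at marker means of -2.83 to -1.90.

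The promoters are shown because the prominins differed in what they followed. Prom2 by probe A_52_P452667 went with genotype and, in iKO mice, with age and tissue. Prom1 was called between tissues and passed no test with age. For each start in the RefSeq promoter set (GRCm38.p6), the 250 bases before it are given 5′ to 3′ on the minus strand. For Prom1 the listed starts lie inside the gene's span, which ends at 44102047, and no window before that end was used here. Capitals mark matches to GGGCGG (GC box) or CCAAT on either strand.
Prom2, chr2:127541418-127541667: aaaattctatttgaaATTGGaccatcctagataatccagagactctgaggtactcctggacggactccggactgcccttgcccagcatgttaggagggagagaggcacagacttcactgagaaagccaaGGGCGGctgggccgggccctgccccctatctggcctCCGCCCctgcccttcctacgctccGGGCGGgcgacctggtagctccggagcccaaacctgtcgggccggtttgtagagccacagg
Prom1, first listed start, chr5:44101737-44101986: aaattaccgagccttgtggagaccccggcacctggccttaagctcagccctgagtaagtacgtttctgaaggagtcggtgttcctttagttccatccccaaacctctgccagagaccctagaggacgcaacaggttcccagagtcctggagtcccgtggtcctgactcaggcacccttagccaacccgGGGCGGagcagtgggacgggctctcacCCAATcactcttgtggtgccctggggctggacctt
The Prom2 window held 3 GC boxes and 1 CCAAT, and 12 CG dinucleotides, more than 66.5% of all such windows. The first Prom1 window held 1 GC box, 1 CCAAT and 9 CG dinucleotides. A second Prom1 start, chr5:44094769-44095018, held neither motif and 3 CG dinucleotides. Over 32817 windows, 32.7% held a GC box and 33.8% a CCAAT. The TATA box letters TATAAA, in 12.4% of all windows, were in none of the 3. Neither was the E-box CACGTG, in 6.02% of windows. The letters TTTATG, in 10.8% of windows, were absent as well. A match is a run of letters and not a shown binding site.

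Genes with the pattern most like Prom2 were ranked by Pearson's r with probe A_52_P452667 over the 22 arrays, among 15761 genes. The likest was Arhgap8 (r = 0.908), followed by Plch2 (0.89), Pkp1 (0.887), Wfdc15b (0.856), Rnf225 (0.853), Slc44a2 (0.852), 1700019D03Rik (0.831), Micall2 (0.827), Ccno (0.824) and Hebp2 (0.819). They were chosen for this likeness, so their values are a description. The r values also rest on the flox arrays, where Prom2 signals were at background and are not measured levels. Pkp1 encodes plakophilin 1, a desmosome protein, Plch2 a phospholipase C and Slc44a2 a choline transporter-like protein.

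No ranking by size against Prom2 is given, since its differences are only bounds: in the young ileum that bound (3.75-fold, 1.91 on the log2 scale) lies below the fitted difference of Wfdc15b. Arhgap8 in iKO mice was 1.00 ± 0.17 higher in the young ileum, 1.33 ± 0.18 in the aged ileum and 1.38 ± 0.22 in the colon (log2 ± SE). Wfdc15b, a small protease inhibitor-like protein, differed by 3.62 ± 0.32 in the colon and was at least 6.79-fold higher in the aged ileum; in the young ileum it differed by 2.99 ± 0.34, with 1 of 4 flox arrays well above background. Slc44a2 differed by 1.10, 1.28 and 1.43 in the same order. Wfdc15b differed by 0.13 ± 0.34 with age in iKO ileum and 0.15 ± 0.30 between colon and ileum of aged iKO mice. Slc44a2 gave 0.43 ± 0.16 and 0.93 ± 0.08 there, and Hebp2 0.46 ± 0.16 and 0.89 ± 0.19. Rnf225 was not well above background in any ileum group and at least 4.32-fold higher in colon iKO than flox mice. After group means were taken out, none of the 10 ranked among the 10 likest. That check includes the flox arrays, on which Prom2 was at background. The SD of Prom2 was 0.27 in young ileum flox, 0.75 in aged ileum flox and 0.26 in colon flox mice. In the iKO groups it was 0.17, 0.19 and 0.2 in the same order. Background spread therefore weighs on the check, which cannot decide whether the likeness also holds among arrays of a group.

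**Figure D4:**
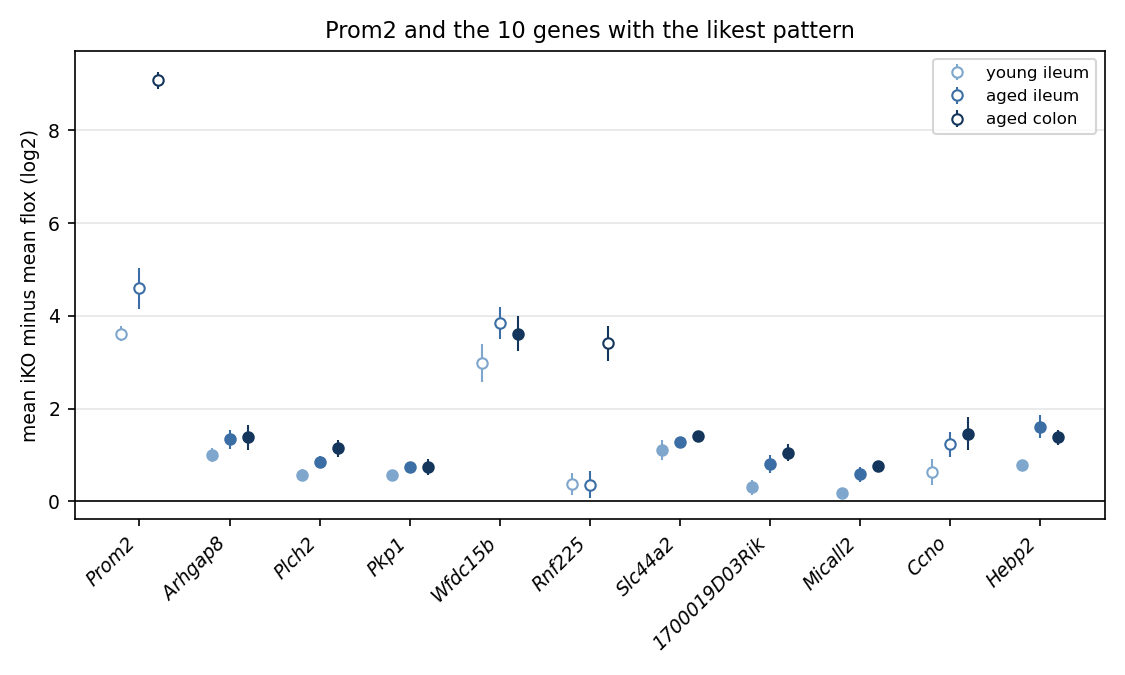
Mean iKO minus mean flox level (log2) for Prom2 probe A_52_P452667 and the 10 genes with the likest pattern, in young ileum, aged ileum and aged colon; bars are standard errors from the SDs of both groups, and open points have a group that was not well above background on every array. All 3 Prom2 points are open, so their heights of 3.62 to 9.08 rest on flox signals at background and are not measured sizes; the filled points of the other genes lie below 4.

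For Prom1 probe A_51_P414072 the likest genes over the 22 arrays were Cyp2d34 (r = 0.988), Sptssb (0.984), Tspan1 (0.974), Clybl (0.97), Nf2 (0.964), Far1 (0.963), St6galnac6 (0.963), Paqr5 (0.962), Ethe1 (0.962) and Ugt1a6b (0.958). Tspan1 is a tetraspanin of the cell surface, Sptssb a small subunit of the enzyme that starts sphingolipid synthesis, and Far1 makes fatty alcohols. They were picked over arrays that hold the step from ileum to colon, so their higher colon level follows from the choice and is a description. Cyp2d34 was higher in the colon by 6.81 ± 1.35 in flox and 5.98 ± 1.17 in iKO mice, and without the pair of arrays with colon markers by 8.58 ± 0.74 and 6.76 ± 0.62 (log2 ± SE). Tspan1 was higher by 0.95 ± 0.23 and 0.72 ± 0.20, and without the pair by 1.22 ± 0.16 and 0.86 ± 0.13. Cyp2d34, Sptssb and Tspan1 were the 3 likest within the 15 ileum arrays and again after group means were taken out. Over the 13 ileum arrays without the pair, their r with Prom1 was 0.935, 0.921 and 0.896, against 0.545 to 0.81 for the other genes. Ugt1a6b, at 0.545, was well above background on no ileum array, so its r there rests on background signals. In aged flox ileum Cyp2d34 read 1.88 on flox 1, an array with colon markers. The other aged flox arrays read -3.83 and -3.06, within the young flox range of -5.40 to -1.79. Without the pair the difference with age in flox ileum was 0.49 ± 1.10 (log2 ± SE). Cyp2d34 was well above background on 1 of 4 young flox and 3 of 4 young iKO arrays. Its young levels, its r in the ileum and its difference with age therefore rest partly on background signals.

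No neighbour of Prom2 on chromosome 2 was called between genotypes in the colon, where 0.103% of all probes were called. With so few calls over all probes, the lack of a call is not a result about the neighbours. Prom2 lies at GRCm38.p6 chr2:127526953-127541417, with Kcnip3, Fahd2a and Gpat2 on the lower side and Zfp661, Mrps5 and Mal on the upper side. In the colon their iKO minus flox differences were 0.50 ± 0.18, 0.10 ± 0.12, 0.28 ± 0.43, -0.10 ± 0.09, -0.05 ± 0.12 and 0.22 ± 0.86 (limma, smallest adjusted p = 0.593), where Prom2 was at least 345-fold higher. Fahd2a and Zfp661 were higher in the colon than in the ileum of aged iKO mice, by 0.65 ± 0.09 (adjusted p = 0.000149) and 0.62 ± 0.10 (limma, adjusted p = 0.000321), and without the pair by 0.67 and 0.72 (adjusted p = 0.000707 and 6.15e-05).

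Prom1 lies at chr5:43993621-44102047. Next to it lie Fgfbp1, Cd38 and Bst1 on the lower side and Tapt1, Ldb2 and 4930431F12Rik on the upper side. Against Prom1, which was higher in the colon, Bst1, an enzyme related to Cd38 that uses NAD, differed by -5.34 ± 0.84 in flox (limma, adjusted p = 0.000681) and -4.03 ± 0.73 in iKO mice (adjusted p = 0.000948). 4930431F12Rik was at least 14.7-fold lower in flox colon and at least 25.5-fold lower in iKO colon. Without the pair Bst1 differed by -6.27 and -4.62 (adjusted p = 3.18e-05 and 3.8e-05) in flox and iKO mice. Tapt1 was 0.22 ± 0.07 higher in iKO colon (limma, adjusted p = 0.0342), a call lost without the pair (adjusted p = 0.0699) and without ileum iKO 1, 2 or 3 or colon iKO 1, 2 or 3 (adjusted p up to 0.102). Fgfbp1, Cd38 and Ldb2 did not pass between tissues in either genotype.

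Genes of the processes tied to prominins were counted between genotypes. In 6 lists, of crypt stem and progenitor markers, microvilli, caveolae, ferroptosis, cilium and photoreceptor disc, and epithelial junctions, limma called 0 members in the young ileum, 0 in the aged ileum and 0 in the colon. Over all probes 8, 34 and 30 were called in these settings, and 931, 2582 and 2076 had an unadjusted p under 0.05. At shares of 0.0359%, 0.153% and 0.103% over all probes, a count of 0 is near the background and is not a result about the lists. List medians lay between -0.14 and 0.10. Tfrc, the transferrin receptor, was the list gene with the smallest p of the ferroptosis list in the colon, at 0.55 ± 0.12 (adjusted p = 0.295). In the aged ileum 1 crypt marker was called without aged ileum flox 1 or without the pair of arrays with colon markers, and with array weights, where 2580 probes were called in all, 9 list members were.

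Between tissues, list members were called in both directions, and several lists near or below the share over all probes. Of 20 crypt markers 4 were higher and 5 lower in flox colon than ileum, and 8 higher and 6 lower in iKO colon, against 31.8% and 42.7% called over all probes. Lgr5, the receptor that marks crypt base stem cells, fell by 1.37 ± 0.20 in flox (limma, adjusted p = 0.000375) and by 2.20 ± 0.17 in iKO mice (adjusted p = 2.22e-06), while Prom1 was higher; without the pair of arrays the differences were -1.49 and -2.27 (adjusted p = 0.000663 and 1.02e-05). Olfm4, another stem cell marker, was well above background on every ileum array and on no colon array. Of 20 microvillus genes 3 were higher and 12 lower in the colon of either genotype, with a median of -0.82 in flox and -0.99 in iKO mice against 0.11 and 0.10 over all probes. Vil1, the actin bundler villin, fell by 1.51 ± 0.15 (limma, adjusted p = 2.95e-05) and 1.70 ± 0.13 (adjusted p = 1.93e-06), and without the pair differed by -1.61 and -1.75. Enterocyte markers were lower too, 10 of 10 in flox colon (median -4.65) and 9 of 10 in iKO colon (median -5.48), with summed signals of 109 to 242 on colon and 629 to 1140 on aged ileum arrays, and their part in the microvillus values was not tested. Of 9 cilium and disc genes 3 were higher and 1 lower in either genotype, with Ift88, a carrier of cargo into cilia, higher by 0.51 ± 0.11 and 0.48 ± 0.09 (limma, adjusted p = 0.0041 and 0.00148), and by 0.53 and 0.54 without the pair. Cdhr1, a cadherin of photoreceptor discs, was well above background on all 7 colon arrays and, among aged ileum arrays, on 1 of 3 flox and 0 of 4 iKO.

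Of 18 ferroptosis genes 7 were higher and 5 lower in flox colon, and 8 higher and 4 lower in iKO colon, beside 31.8% and 42.7% called over all probes; the caveola and junction counts in flox colon lie below that share. Slc40a1, the iron exporter ferroportin, was 1.28 ± 0.21 higher in flox (limma, adjusted p = 0.000932) and 0.88 ± 0.18 higher in iKO colon (adjusted p = 0.00233), and without the pair by 1.36 and 0.83. Of 15 caveola genes 6 were higher in iKO colon, among them Cav1, caveolin 1, at 0.77 ± 0.20 (limma, adjusted p = 0.00787; 0.74 and 0.0208 without the pair). Smooth muscle markers were higher there as well, 8 of 10 in iKO colon (median 0.80) and 2 of 10 in flox colon (median 0.49), with summed signals of 374 to 614 on colon iKO against 220 to 336 on aged ileum iKO arrays, and all 10 well above background on every array. Their part in the caveola values was not tested. In flox colon 2 passed, Npc2 and Npc1, which move cholesterol out of lysosomes. This count was 0 without colon flox 1 or ileum flox 4, 1 without ileum flox 3, ileum iKO 2 or 4 or colon iKO 1 or 4, and 4 without ileum flox 1. Without the pair the calls, higher and lower, were 4 and 4 for crypt, 3 and 12 for microvilli, 5 and 4 for ferroptosis, 3 and 0 for caveolae and 3 and 1 for cilium genes in flox, and 7 and 6, 3 and 13, 7 and 4, 6 and 0 and 3 and 1 in iKO mice. Of 16 junction genes 1 was higher and 3 lower in flox and 2 higher and 6 lower in iKO colon, where 5 in all were called without ileum iKO 1, ileum iKO 3 or colon iKO 2; without the pair it was 1 and 5 in each genotype.

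With age 9 list members passed in iKO ileum and 5 in flox ileum, of 92 tested, beside 11.1% and 8.18% called over all probes, so both counts are near or below the background. Of the 9, Ehd2, a protein of caveola necks, fell by 1.03 ± 0.16 (limma, adjusted p = 0.00237), Slc40a1 by 0.87 ± 0.17 (adjusted p = 0.00852), Anks4b of the microvillus tip links by 0.63 ± 0.12 (adjusted p = 0.00788) and Epcam by 0.49 ± 0.10 (adjusted p = 0.0113). These 4 held without the pair of arrays with colon markers and in each leave-one-out. The other 5 were Sox9, a crypt factor, which rose by 0.42 ± 0.12 (adjusted p = 0.038), and Ireb2, Crb3, Tjp1 and Krt8, which fell by 0.27 to 0.51 (adjusted p = 0.0239 to 0.0454). Each of these 5 lost its call without aged iKO 1, aged iKO 3 or young iKO 3, and all but Crb3 without the pair. The 9 became 5 without the pair or aged iKO 4, 6 without aged iKO 2 or young flox 1, and 4 without aged iKO 1, aged iKO 3 or young iKO 3. In flox ileum those that passed were Sox9, Slc40a1, Anks4b, Epcam and Crb3. None passed without that pair, 1 without young flox 1 or 4 or aged flox 1 or 4, and 2 without young flox 3.

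Markers of stratified and urothelial epithelium, other cell types the tissue could hold, were followed beside Prom2. Their summed signal over 16 genes was 4.03 to 5.13 on colon iKO and 3.14 to 7.07 on colon flox arrays, and 3.41 to 6.21 on ileum arrays. Of the 16 genes 10 were well above background on every colon iKO array and 9 on every colon flox array, Krt5 and Krt14 among them. Dsc3 and Sprr3 were on no colon array well above background, and Trp63, the defining factor of stratified epithelium, on 1 of 4 iKO and 0 of 3 flox arrays. Goblet cell marker sums were 1540 to 1820 on colon iKO and 1080 to 1310 on colon flox arrays. Haematopoietic sums were 57.6 to 92.9 and 30 to 48, and Paneth sums 23.8 to 209 and 11.5 to 23.6, in that order. Sums of the other cell type lists overlapped between genotypes in the colon. No member of these lists was called there, where 0.103% of all probes were. The part of these cells in the Prom2 values was not tested. Endothelial marker sums were 5.64 to 7.45 in aged and 3.27 to 4.61 in young iKO ileum, so they were higher where Prom2 was higher with age, and 6.66 to 8.51 against 3.68 to 5.03 in flox ileum. Their part in the result was not tested.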

How the data were processed

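Deposited signal intensities came from Agilent Feature Extraction, version 9.5 per the submitters' processing notes, already background-subtracted within arrays per the file headers, with no scaling between arrays. The authors' deposited values in the series table equalled them. From these intensities, log2 values minus the 75th percentile of each array were computed, and spots of a probe averaged. The dim-probe filter kept a probe for a fit when all arrays of some group in it flagged the probe as well above background. Each probe was tested apart with limma 3.58.1 in R 4.3.3, with Benjamini-Hochberg adjustment over all probes and a threshold of 0.05, in separate fits of the ileum, colon and aged arrays. The other tools were data.table (version 1.17.8), Python 3.11.15, pandas 2.3.3, numpy, scipy and matplotlib 3.10.9, and fits were tested on simulated data. Sequences came from the scanner files and the RefSeq promoters given. Depth does not apply to arrays; their number limits precision. The members and the gene lists were chosen with earlier results of these data known. Named genes were the members, Sirt1, the 10 likest genes, the 3 nearest on each side, and up to 4 members a list by smallest p; Olfm4, Npc1 and marker genes were named for their background level or a small count. Alternatives were quantile and normexp processing, filters, the brightest probe, eBayes options, array weights, the slide or replicate number as a block, and leaving out arrays singly; leaving out the pair of arrays with colon markers was added after seeing the data. No pairing by replicate number was used in the main fits, and the labels do not say whether ileum and colon arrays of the same number share a mouse.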

Additional observations from a re-analysis of the deposited data

How the results depend on the processing

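The rise of Prom2 with age in iKO ileum and its colon excess in iKO mice kept direction and call wherever A_52_P452667 was fitted. The stricter filter asks for every array of a fit to be well above background, so it dropped this probe. The colon excess of both Prom1 probes in both genotypes also kept direction and call wherever the probe was fitted. The brightest-probe setting fitted only 1 probe of each gene. The second Prom2 probe, which entered the tissue fit only through colon iKO, gave 0.79 for colon against ileum in iKO mice, past the threshold only when those groups alone were fitted; nothing is read from it. Sizes of the Prom2 genotype difference rest on background: A_52_P452667 gave 1.56 in the young ileum, 3.17 in the aged ileum and 6.32 in the colon with normexp, 8.71 in the colon with quantile normalization and 4.13 in the aged ileum with array weights, and A_51_P385928 in the colon gave 3.18 with quantile normalization and 1.56 with normexp. Leaving out arrays 1 at a time gave 3.54 to 3.70, 4.19 to 4.91 and 8.94 to 9.18 for the former, the lowest aged ileum value without aged ileum flox 3, and 4.18 to 4.66 for the latter.

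Counts of called probes moved more. For ageing in flox ileum, 1823 became 568 with no filter, 6122 with array weights, 830 with only the groups compared, 689 with slide as a fixed factor, 816 without the pair of arrays with colon markers, and 613 to 1964 leaving out each array, with falls past 1.5 times without young flox 1, 3 or 4 or aged flox 1 or 4. For ageing in iKO ileum, 2482 became 1014 with no filter and 1074 to 2704 leaving out each array, with falls past 1.5 times without young iKO 3 or aged iKO 1, 3 or 4. Between tissues, 9315 and 12488 became 15857 and 19668 with no filter, 6950 to 9430 and 10471 to 12761 leaving out each array, and the share of higher calls went from 61.4% and 58.2% to 42.9% and 41.8% with normexp. For iKO against flox, the young count of 8 became 14 with trend and robust eBayes, 5 with only the groups compared and 6 to 13 leaving out each array (13 without aged iKO 2). The aged ileum count of 34 became 15 with no filter, 2580 with array weights, 18 with only the groups compared, 8 with slide fixed and 17 to 56 leaving out each array (56 without young flox 3 or aged flox 1; 17, 20 and 20 without aged flox 4, aged iKO 3 or 4). The colon count of 30 became 55 with normexp, 56 with trend and robust eBayes, 1 with slide fixed and 7 to 29 leaving out each array (16, 16, 10 and 7 without flox 1, flox 3, iKO 1 and iKO 2). Krt8 between tissues turned from -0.39 and -0.33 to 0.08 and 0.02 with quantile normalization (adjusted p = 0.407 and 0.803). The cause was not tested for any of these. Slide as a fixed factor could not be fitted between tissues.

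With the replicate number as a block, 21 probes were called in the aged ileum and 1 in the colon for iKO against flox, and no prominin call changed. Over 21 ileum pairs of equal number the deviations correlated at -0.34 to 0.36, 14 of them above 0.1, and 6 of 15 arrays matched their own number best. Over 19 pairs among the aged arrays of both tissues they correlated at -0.19 to 0.13, 1 of them above 0.1, and 3 of 14 arrays did so. The labels do not say whether ileum and colon arrays of the same number come from the same mouse. The tissue tests treat them as independent.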
